A study of Homo sapiens with 10 samples.

Results

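The 64 sites described here are the peaks called for the MYC mutant labelled 7A, set against the 4749 peaks called for wild-type (WT) MYC. All 64 rows of the 7A list were kept, out of 5658 peaks in the 3 lists of the series. Both proteins were FLAG-tagged and induced with doxycycline (1 µg/mL for 24 h) in U2OS, a human osteosarcoma line whose endogenous MYC gene had been knocked out, and an anti-FLAG antibody pulled down the bound chromatin. The assay, ChIP-Rx, is chromatin immunoprecipitation with an exogenous reference, here 10% mouse NIH3T3 cells, a fibroblast line. Each protein had 2 immunoprecipitate (IP) libraries and 1 deposited list. Replicate spread cannot be seen in a single list, so 7A and WT were compared without a replicate test. Confidence intervals below cover counting error within a list. The labels do not say which residues 7A changes or whether each line is 1 clone. Peak lists hold no expression values, so the cell type was not checked against its markers, and the uninduced and input libraries were not analysed here. Coordinates are those of hg38, counted from 1.

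MYC is a basic helix-loop-helix leucine zipper transcription factor that binds DNA as a dimer with MAX, with a preference for the E-box CACGTG. It occupies the promoters of many active genes, and it is known above all for its binding at genes of ribosome production, translation and nucleotide synthesis. Enhancers and other sites away from promoters are bound as well, usually at higher levels of MYC.

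The promoters below are windows at gene starts that overlap a 7A peak, in whole or in part. RefSeq windows (GRCh38.p14) run from 250 bases before a gene's start to 50 after it, and 29 windows of 24 genes overlapped a peak at 18 of the 7A sites. SLC39A11 (chr17:73092639-73092938, minus strand) and PCBP1-AS1 (chr2:70086897-70087196, minus) are shown because they hold an E-box and had a WT peak. RPL27 (chr17:42998169-42998468, plus) and RPL10A (chr6:35468151-35468450, plus) are ribosomal protein genes with a WT peak. NUF2 (chr1:163321704-163322003, plus), RAB5C (chr17:42154940-42155239, minus) and TMEM242 (chr6:157323470-157323769, minus) are protein-coding genes, 1 from each of the 3 gene-end sites without a WT peak. Each window is printed 5′ to 3′ along its gene. The 7A summit lay past the end of the printed window at RPL27, RPL10A and RAB5C. It was 126, 62 and 71 bases after the start there. Capitals mark every match on either strand to the E-box CACGTG, to its relatives CACGCG and CATGTG, to the GC box GGGCGG, to the CCAAT box, to the TATA box TATAAA or to the palindrome TCTCGCGA, and neighbouring matches may touch.
SLC39A11: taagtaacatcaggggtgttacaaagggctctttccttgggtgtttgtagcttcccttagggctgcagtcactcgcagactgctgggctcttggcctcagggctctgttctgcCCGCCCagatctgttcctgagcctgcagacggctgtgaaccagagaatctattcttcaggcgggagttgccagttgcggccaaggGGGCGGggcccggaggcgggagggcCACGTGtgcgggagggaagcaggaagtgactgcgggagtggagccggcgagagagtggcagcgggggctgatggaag
PCBP1-AS1: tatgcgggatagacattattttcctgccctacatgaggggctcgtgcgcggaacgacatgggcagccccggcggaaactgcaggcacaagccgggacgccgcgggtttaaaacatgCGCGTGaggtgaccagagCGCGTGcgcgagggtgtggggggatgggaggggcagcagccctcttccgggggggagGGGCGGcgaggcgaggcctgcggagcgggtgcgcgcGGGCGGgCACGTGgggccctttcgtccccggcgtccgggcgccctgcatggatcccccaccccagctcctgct
RPL27: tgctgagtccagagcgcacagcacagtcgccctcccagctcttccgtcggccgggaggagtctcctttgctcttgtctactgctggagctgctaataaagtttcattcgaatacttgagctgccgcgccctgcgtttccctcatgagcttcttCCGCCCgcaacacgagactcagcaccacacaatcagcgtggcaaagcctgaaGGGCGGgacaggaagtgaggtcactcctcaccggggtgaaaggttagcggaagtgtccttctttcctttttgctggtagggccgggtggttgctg
RPL10A: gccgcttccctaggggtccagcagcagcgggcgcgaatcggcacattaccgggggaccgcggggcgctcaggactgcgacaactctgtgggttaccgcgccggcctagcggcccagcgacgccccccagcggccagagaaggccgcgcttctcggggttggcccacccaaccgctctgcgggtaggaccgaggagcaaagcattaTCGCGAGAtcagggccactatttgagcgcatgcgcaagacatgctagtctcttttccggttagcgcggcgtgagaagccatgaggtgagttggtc
NUF2: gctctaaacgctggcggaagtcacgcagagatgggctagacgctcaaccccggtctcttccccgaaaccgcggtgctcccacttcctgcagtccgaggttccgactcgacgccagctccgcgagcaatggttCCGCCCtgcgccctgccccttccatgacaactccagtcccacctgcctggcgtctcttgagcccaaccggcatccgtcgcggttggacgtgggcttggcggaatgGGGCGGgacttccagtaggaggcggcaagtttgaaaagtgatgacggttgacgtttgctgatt
RAB5C: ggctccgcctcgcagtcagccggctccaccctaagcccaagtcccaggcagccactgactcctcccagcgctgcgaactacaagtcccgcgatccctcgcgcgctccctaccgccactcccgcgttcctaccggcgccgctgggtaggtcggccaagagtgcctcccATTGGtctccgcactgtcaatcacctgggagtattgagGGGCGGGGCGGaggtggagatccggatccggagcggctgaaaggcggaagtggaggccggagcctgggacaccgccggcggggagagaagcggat
TMEM242: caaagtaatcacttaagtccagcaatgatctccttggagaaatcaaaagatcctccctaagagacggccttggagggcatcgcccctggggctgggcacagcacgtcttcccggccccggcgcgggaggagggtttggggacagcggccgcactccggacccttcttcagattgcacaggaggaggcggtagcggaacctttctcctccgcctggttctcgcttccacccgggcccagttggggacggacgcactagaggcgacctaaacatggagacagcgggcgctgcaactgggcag

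The share of these windows with an E-box lay between the shares of all windows and of windows under a WT peak. A count of 3 in 29 is near the share of all windows. CACGTG was in 3 of the 29 windows (10.3%), against 16.9% of the 4242 windows under a WT peak and 7.27% of all 34961 windows on chromosomes 1 to 22 and X. In SLC39A11 the E-box began 27 bases before the start. The other matches were at the 7A site shared by ASPRV1, PCBP1 and PCBP1-AS1, where several windows overlap. The related sequence CACGCG was in 4 of 29 windows (13.8%, against 28.7% under WT peaks and 11.4% of all), and these 4 windows belong to the ASPRV1 and PCBP1 site. GGGCGG, the GC box, was in 62.1% of the 7A windows, 74.9% of the WT windows and 45.0% of all. CCAAT was in 17.2%, 29.7% and 34.6% in the same order. CATGTG and TATAAA were in 0 of the 29 windows, against 11.1% and 11.5% of all. TCTCGCGA matched in RPL10A alone among the 29 (3.45%, against 1.15% of all). The median GC content was 62.3% in the 7A windows, 68.0% in the WT windows and 58.7% in all. Windows of 1 site overlap each other, so the 7A shares rest on fewer than 29 separate stretches of DNA. Some windows do not hold the 7A summit, so the counts do not cover the DNA at every summit.

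Binding by 7A was called at few places, and mostly where WT was also called. Of the 64 7A peaks, 49 overlapped a WT peak by 1 bp or more (76.6%, Wilson 95% interval 64.9 to 85.3%) and 15 did not. From the other side, 1.03% of WT peaks (49 of 4749, 0.781 to 1.36%) had a 7A peak. Each of the 49 pairs joined 1 peak of each list, and 41 of the 49 7A peaks lay wholly inside the WT peak. Their summits were a median of 50 bp apart (quartiles 19 to 97 bp, highest 217 bp), and 38 of 49 were within 100 bp.

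The authors' fold enrichment, the IP pileup over local background at the summit, ran from 2.37 to 4.99 at the 63 nuclear 7A sites, with a median of 3.42 (quartiles 3.12 to 3.99). In the WT list it ran from 1.63 to 30.5 with a median of 5.14. The weakest 7A peak had a −log10 p of 8.23. Of the 4749 WT peaks, 4701 were at least that strong in p, so the same limit on p would shorten the WT list by 48 peaks. The read pileup and background behind each fold were recovered from the fold and the p-value. The pileup at 7A summits was 39 to 191 reads in the nuclear genome, with a median of 63 over a background of 18.2. WT summits had a median pileup of 72 over a background of 13.0.

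At the 49 shared sites the pileup was higher in the WT list than in the 7A list at 47. Its median was 108 (quartiles 82 to 153) in WT and 68 (56 to 83) in 7A. The local background at the same sites was lower in WT at 46 of 49, which raises the WT folds. Its medians were 17.3 in WT and 18.5 in 7A, and the WT value divided by the 7A value had a median of 0.895 (quartiles 0.838 to 0.953). These pileups were not scaled by the mouse reads. The exceptions were the site nearest CEBPB, at 80 reads in WT and 99 in 7A, and the site nearest ADAMTS14, at 51 and 55.

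**Figure D1:**
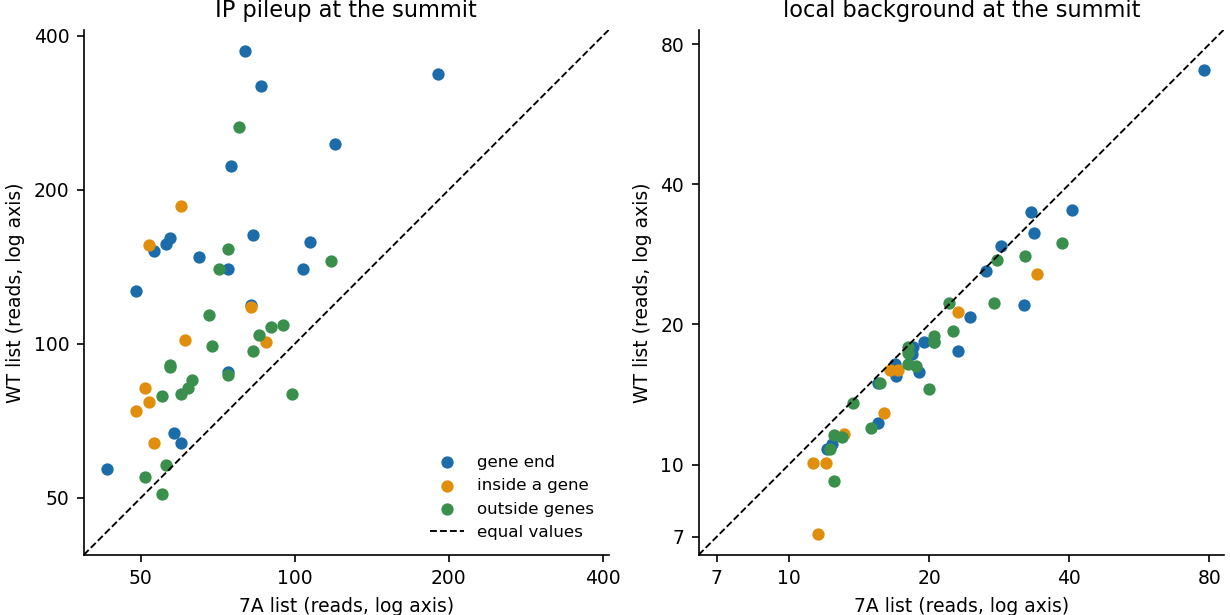
Recovered IP pileup (left) and local background (right) at the summit of the 49 shared sites, 7A list on the x axis and WT list on the y axis, in reads on log axes, each point 1 site colored by position and the dashed line marking equal values. WT pileups lie above the line at 47 of 49 sites, while WT backgrounds lie below it at 46 of 49, from 0.617 to 1.05 times the 7A value.

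The 7A sites fell away from protein-coding genes more often than WT peaks did. Position was read from the RefSeq spans of protein-coding genes, with non-coding genes left out. A summit within 1 kb of either end of such a gene was at a gene end. Other nuclear summits were called inside a gene or outside genes by the same spans. Of the 64 7A summits 22 were at a gene end (34.4%, Wilson 95% interval 23.9 to 46.6%), against 60.2% (58.8 to 61.5%) of WT summits. A further 11 (17.2%) were inside a gene and 30 (46.9%, 35.2 to 58.9%) outside genes, against 22.6% and 17.2% (16.2 to 18.3%) of WT summits, and 1 was mitochondrial. Seen from WT, 2.57% (1.69 to 3.89%) of the 818 peaks outside genes had a 7A peak, 0.838% (0.441 to 1.58%) of the 1074 inside genes and 0.665% (0.426 to 1.04%) of the 2857 at gene ends. The intervals of the first and the last do not overlap, but they cover counting error within a list only and are not a test. None of the 64 summits was within 1 kb of a tRNA, rRNA, snRNA, snoRNA or miRNA gene of the table, and WT summits were not counted in this way.

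**Figure D2:**
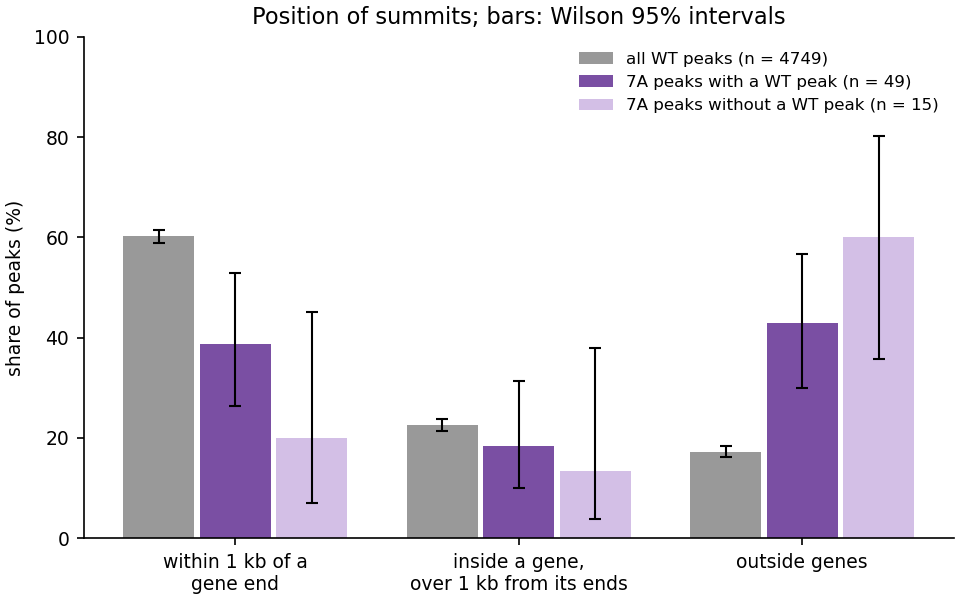
Share of summits (%) within 1 kb of a protein-coding gene end, inside a gene and outside genes, for all WT peaks (grey), 7A peaks with a WT peak (dark) and 7A peaks without one (light), with Wilson 95% intervals. Outside genes the shares are 17.2%, 42.9% and 60.0%, and at gene ends 60.2%, 38.8% and 20%.

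Shared gene-end sites stood high in the WT list and low in the 7A list. Of the 19 shared gene-end sites, 13 had a WT fold above the median of the WT list, and 5 had a 7A fold above the 7A median. Of the 30 shared nuclear sites away from gene ends, 15 were above the WT median and 20 above the 7A median. The median WT fold of the gene-end group was 6.81, at a median percentile of 75.8 in the WT list, and its median 7A fold was 3.25. Away from gene ends the medians were 5.25 (percentile 52.3) in WT and 3.52 in 7A. The gene-end sites had the higher pileup in both lists, with medians of 152 in WT and 74 in 7A, against 94 and 62.5. The median of all 2857 WT peaks at gene ends was 5.07. Background differed with position too: its median in the 7A list was 19.5 at the gene ends and 18.0 away from them, and its part in the order of folds was not tested.

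**Figure D3:**
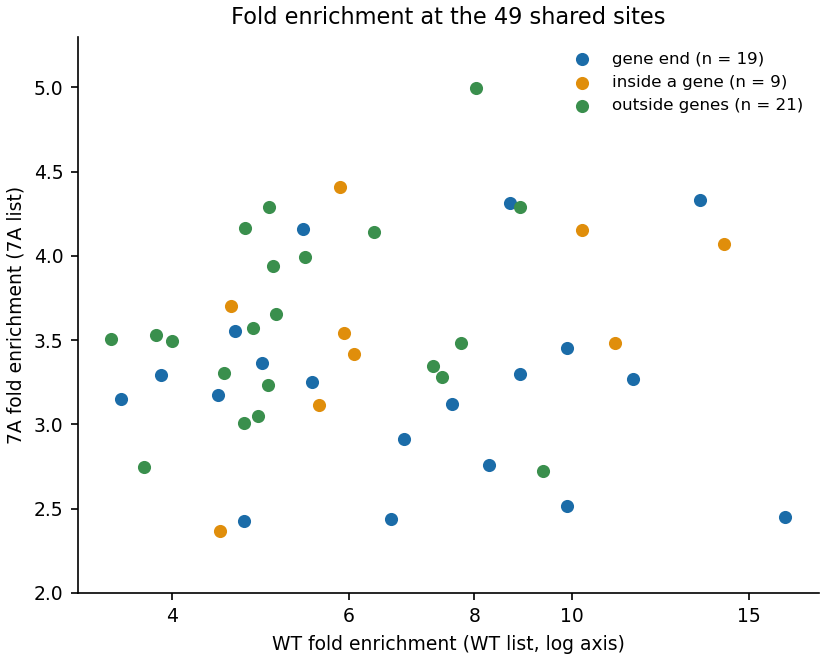
Fold enrichment of the 49 shared sites in the WT list (x axis, log) and in the 7A list (y axis), each point 1 site colored by position. The folds are relative to each list's own background. The site with the highest WT fold, 16.3 at ASPRV1 and PCBP1, is among the lowest in 7A at 2.45, and the highest 7A fold, 4.99, has a WT fold of 8.03.

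Ribosomal protein genes made up 5 of the 25 protein-coding genes with a 7A summit within 1 kb of an end. RPL27, a large-subunit gene, had the highest 7A fold at any gene end, 4.33, from a pileup of 57 over a background of 12.4 (chr17:42998259-42998777). Its WT peak had a fold of 13.4 from 161 reads over 11.1 and was ranked 104 in the WT list, with the summits 54 bp apart. RPL37 had a 7A fold of 3.55 from 104 reads (chr5:40835061-40835539) and a WT fold of 4.63 from 140. At RPL37A the 7A pileup of 120 reads stood over a background of 40.6, giving a fold of 2.91 (chr2:216498781-216499159), beside a WT fold of 6.81 from 246 reads over 35.3. RPL10A had 86 reads in 7A over 33.5, a fold of 2.52 (chr6:35468240-35468621), and 320 in WT over 31.4, a fold of 9.90. RPL32 was the weakest 7A peak of the list by q, with a −log10 q of 3.8 and a fold of 2.44 (chr3:12841137-12841621), beside a WT fold of 6.61. The summits in the 2 lists were 2 bp apart at RPL10A, 7 bp at RPL32 and 14 bp at RPL37A, and 152 bp apart at RPL37. In every one of the 5 the WT pileup was the higher.

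Against the background, 25 of 19974 protein-coding genes (0.125%) had a 7A summit within 1 kb and 3352 (16.8%) a WT summit. Cytosolic ribosomal protein genes had 5 of 79 (6.33%) in 7A and 66 of 79 (83.5%) in WT. Taken among the genes with a WT summit, 7.58% of the ribosomal protein genes and 0.626% of all 3352 also had a 7A summit. Ribosomal protein genes were 20% of the 25 genes with a 7A summit and 1.97% of the genes with a WT summit. RPL5, RPL36 and RPL36A, with WT folds of 15.6, 12.5 and 11.8, had no 7A peak, so the member with the highest WT fold was not among the 5.

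Splicing genes had 2 of 31 in 7A and 19 in WT, beside 0.125% and 16.8% of all protein-coding genes. SNRPB, which encodes a core protein of the spliceosomal snRNPs, had a 7A fold of 3.12 from 74 reads over 23 (chr20:2470509-2470921) and a WT fold of 7.60 from 140 over 17.5. SF3B3, a subunit of the U2 snRNP factor SF3b, shares its end with COG4, a gene of the Golgi tethering complex COG. The 7A fold there was 3.27 from 53 reads (chr16:70523495-70524193) and the WT fold 11.5 from 152. Chaperone genes had 1 of 22 in 7A and 17 in WT. CCT7, a subunit of the chaperonin TRiC that folds actin and tubulin, had a 7A fold of 2.76 from 75 reads over 26.5 (chr2:73234199-73234721) and a WT fold of 8.27 from 223 over 26.1. SRSF1, SNRPD1 and CCT2, all with WT folds between 9.66 and 14.5, had no 7A summit.

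Several lists that WT bound widely had no member with a 7A summit. Canonical MYC targets had 28 of 30 in WT and 0 in 7A, nucleolar ribosome biogenesis genes 34 of 40 and 0, and translation factor genes 26 of 37 and 0. With 0.125% of genes bound by 7A over the whole genome, a count of 0 in lists of this size is near that background. NME1, HK2, DKC1 and EEF1B2, with WT folds of 28.9, 19.5, 14.2 and 12.1, were among the members without 7A. The network of MYC, MAX and MLX had 7 of 18 in WT, led by MXD3, a MAX partner that opposes MYC (WT fold 12.8), and 0 in 7A. Bone and mesenchymal genes had 2 of 30 in WT, neuron-restricted genes 2 of 30 and liver-restricted genes 1 of 30, each with 0 in 7A. Over all protein-coding genes the WT share was 16.8%.

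For several well known MYC targets the distance to the nearest 7A summit is given here. With 63 nuclear 7A sites in the genome, long distances say little about these genes, and distances for all genes were not computed. The nearest 7A summit lay 14954507 bp from the end of NCL, the nucleolin gene, whose WT fold was 27. For NPM1 it lay 3300870 bp away (WT fold 20.1 at 1452 bp from the gene end). For CAD and ODC1, genes of pyrimidine and polyamine synthesis, the distances were 15798288 and 32593904 bp. For CDK4, LDHA and MAX they were 8417521, 46973908 and 19752613 bp. The gene MYC itself was the nearest gene to 1 site, 433824 bp from its end.

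The 7A peak with the strongest WT counterpart was at the divergent pair ASPRV1 and PCBP1, a protease gene of the skin and a gene of a poly(rC)-binding protein. WT had a fold of 16.3 there from 374 reads over 22, ranked 52 in its list, in a peak 2196 bp wide. In 7A the fold was 2.45 from 80 reads over 32.0 (chr2:70086199-70087131), ranked 60 of 64, and the peak of 933 bp was the widest of the 7A list. The window printed above for PCBP1-AS1 shows its E-box, 16 bases before that transcript's start, beside 2 matches to CACGCG.

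The other shared gene-end sites belong to genes of varied function. RCOR3, a corepressor gene, had a 7A fold of 4.31 from 83 reads (chr1:211258856-211259351) and a WT fold of 8.69 from 163. MTF2, a partner of the Polycomb repressive complex PRC2, had 4.16 from 74 reads (chr1:93078911-93079315), beside 5.41 from 88 in WT. SLC39A11, a zinc transporter gene whose E-box is shown above, had 3.45 from 56 reads (chr17:73092564-73092899) and 9.89 from 157 in WT, with summits 10 bp apart. PLEKHG4 had a 7A fold of 3.36 from 43 reads and a WT fold of 4.91 from 57 (chr16:67277186-67277609). DRG2, a GTPase gene, had 3.30 from 65 reads and 8.87 from 148 in WT (chr17:18087750-18088152). HUS1, a subunit of the 9-1-1 clamp of the DNA damage checkpoint, had 3.25 in 7A and 5.51 in WT (chr7:47979315-47979734). ZNF76 had the largest nuclear 7A pileup, 191 reads, over the largest nuclear background, 78.1, for a fold of 2.43 (chr6:35259425-35259872), and its WT fold was 4.72 from 337 reads over 70.6. TMBIM4 and VPS13B had WT folds close to their 7A folds in size, 3.90 and 3.29 at TMBIM4 (chr12:66169577-66170052) and 3.56 and 3.15 at VPS13B (chr8:99012781-99013414). These were the lowest WT folds of the gene-end group, ranked 3862 and 4215 of 4749.

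Of the 22 gene-end sites, 16 had their summit within 1 kb of the start of a protein-coding gene in the RefSeq promoter table. For the other 6, among them TMBIM4, RPL37, ZNF76, HUS1 and VPS13B, the gene's own start was not in that table. A start inside a gene span brought in 2 more sites that the gene-end rule had left inside genes, SLC25A45, 313 bp after its start, and AXL, at -652 bp from a start. In all 18 of 64 7A summits (28.1%, Wilson 95% interval 18.6 to 40.1%) and 56.8% (55.4 to 58.2%) of WT summits were within 1 kb of a listed start of a protein-coding gene. Starts of non-coding genes were left out of these counts.

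Away from gene ends, the 30 shared sites are named by the nearest gene or the gene around them, which need not be their target. The highest fold of the 7A list, 4.99, was at a site 30759 bp from SCARB1, the gene of an HDL receptor (chr12:124745883-124746402), with 69 reads over 13.0. WT had a fold of 8.03 there from 99 reads over 11.4. Inside TENM2, a gene of a neuronal adhesion protein, the 7A fold was 4.41 (chr5:168085915-168086609) and the WT fold 5.87. A site 23486 bp from CCN1, which encodes a matricellular protein, had 4.29 in 7A and 8.89 in WT (chr1:85607150-85607567). One 143711 bp from CCND1, the cyclin D1 gene, also had 4.29 in 7A, with 5.00 in WT (chr11:69497115-69497727). Pileups at the CCND1 site were nearly the same, 56 in 7A and 58 in WT, while those at the CCN1 site were 57 and 90.

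The site nearest MYC was the nuclear peak with the highest −log10 q of the 7A list, 24.1, and a fold of 4.17 from 95 reads over 22 (chr8:128176605-128177170). It lay inside the long non-coding RNA gene LOC124902020, and WT had a fold of 4.73 there from 109 reads over 22.2, ranked 2840 in its list. AXL, a receptor tyrosine kinase gene, had 4.15 in 7A from 51 reads (chr19:41225873-41226497) and 10.2 in WT from 82, over the lowest WT background of the shared sites, 7.1. A site 6033 bp from ONECUT3 had 4.14 and 6.35 (chr19:1747263-1747950). Inside LGR6, a gene of an R-spondin receptor, 7A had 4.07 from 52 reads and WT 14.2 from 156, the second highest WT fold among the 49 (chr1:202283326-202283894). Near LIF, the gene of the cytokine leukemia inhibitory factor, a site at 7492 bp had 3.99 in 7A and 5.42 in WT (chr22:30232702-30233263). A site 29801 bp from RMI2 had 3.94 and 5.05 (chr16:11315479-11315904).

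The remaining shared sites away from gene ends had 7A folds from 2.37 to 3.70. Inside genes they were at NNMT, the nicotinamide N-methyltransferase gene (7A fold 3.70, WT fold 4.58, summits at the same base), SLC25A45 (3.54 and 5.94), CUEDC1 (3.48 and 11), ZNF469 (3.42 and 6.08), SMYD3 (3.11 and 5.60) and ATAD2 (2.37 and 4.47). CUEDC1 thus ranked 232 in the WT list and 30 of 64 in 7A. Outside genes the pairs of 7A and WT folds were 3.65 and 5.08 near IRX1, 3.57 and 4.82 near LACTB, 3.53 and 3.85 near DRD1, and 3.50 and 3.48 near CEBPB. Near ADAMTS14 they were 3.50 and 4.00, near ELFN2 3.48 and 7.76, near LOC107985876 3.34 and 7.28, and near SMAD6, an inhibitor of BMP signalling, 3.30 and 4.51. The sites near MRPS18A (3.28 and 7.42), MEIS1 (3.23 and 4.99) and MYLK2 (3.05 and 4.87) fell in the same range of 7A folds. A pair of sites 14860 bp apart lay over 500 kb from MN1, with 3.01 and 4.72 at one and 2.75 and 3.75 at the other. TMEM167B was the exception among sites outside genes in its WT pileup, 266 reads beside 78 in 7A. Its WT fold was 9.35, and 2.72 was its fold in 7A. Except at CEBPB the WT fold was the larger number at each of these sites, each fold being relative to its own list.

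**Figure D4:**
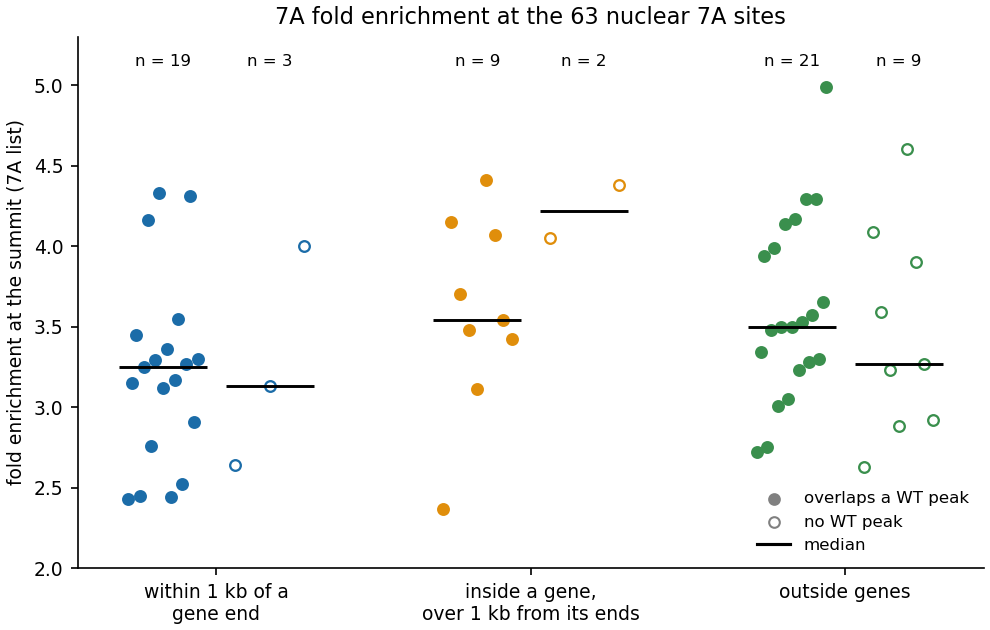
Fold enrichment at the summit in the 7A list for the 63 nuclear 7A sites by position, with a WT peak (filled) or without (open), each point 1 site and each line a median. Sites without a WT peak span 2.63 to 4.60, within the range of those with one, 2.37 to 4.99.

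The 15 7A sites without a WT peak had a median fold close to that of the others and fewer reads. Over the 14 nuclear ones the median 7A fold was 3.43 (quartiles 2.97 to 4.03), against 3.42 (3.12 to 3.94) for the 49 with a WT peak. Their median pileup was 51 reads over a background of 14, against 68 over 18.5, and their median −log10 q was 8.35 against 11.9. The nearest WT peak was between 2390 and 3253838 bp away, and over 100 kb away for 8 of the 14. A 3A peak, from the other mutant of the series, overlapped 6 of the 15, against 43 of the 49 with a WT peak. Neither a WT nor a 3A peak overlapped the remaining 9. Signal below the authors' threshold in WT is not seen in a peak list, so these sites are without a called WT peak, not without WT signal.

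Of those 15 sites 3 were at gene ends. RGS5 and NUF2, genes of a regulator of G-protein signalling and of a kinetochore protein, are divergent and start under 1 peak, where 7A had 71 reads over 22, a fold of 3.13 (chr1:163321666-163322022), and the nearest WT peak was 759426 bp away. RAB5C, an early endosome GTPase gene, had 43 reads over 10.0, a fold of 4.00 (chr17:42154718-42155051), with a 3A fold of 3.92 and the nearest WT peak at 33091 bp. TMEM242 had 73 reads over 27, a fold of 2.64 (chr6:157323349-157323857), and its summit was 21 bp from the start. None of the windows printed above for these starts holds the E-box or either of its relatives, which says only that these letters are not in those windows. The RAB5C window does not hold the 7A summit, which lay 71 bases after the start.

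Inside genes there were 2 sites without a WT peak. SLC2A1, which encodes the glucose transporter GLUT1, held a 7A peak 22260 bp downstream of a listed start with a fold of 4.05 from 78 reads, the largest pileup of the 14 (chr1:42936335-42936767). A 3A peak with a fold of 3.86 overlapped it, and the nearest WT peak, with a fold of 4.43, was 21359 bp away. SVIL, the gene of the actin-binding protein supervillin, had a 7A fold of 4.38 from 50 reads (chr10:29659061-29659922), with no 3A peak and the nearest WT peak at 688802 bp.

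Outside genes there were 9. The highest fold among the 15, 4.60 from 52 reads over 10.5, was 14948 bp from EDIL3, a gene of an integrin-binding matrix protein (chr5:83925409-83925856), where 3A had 4.43 and WT no peak within 1646807 bp. A site 90540 bp from ROBO1, an axon guidance receptor gene, had a 7A fold of 4.09 from 39 reads over 8.8 (chr3:78506471-78506962), the lowest 7A background, and no WT peak within 3253838 bp. The site 32821 bp from NLN had 3.90 from 39 reads (chr5:65861863-65862291). One 8526 bp from CCN4, a relative of CCN1, had 3.59 from 43 (chr8:133182356-133182801). These last 3 sites had no 3A peak.

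A second site near LIF, 4390 bp from its end and 2507 bp from the shared site described above, had a fold of 3.27 from 63 reads (chr22:30235771-30236223). It was the closest of the 15 to a WT peak, at 2390 bp, and had a 3A fold of 3.19. The site 96289 bp from CHD2 had 3.23 from 41 reads with a 3A fold of 3.63 (chr15:92803608-92804215). The site 276986 bp from TBL1XR1, inside the non-coding gene LINC00578, had 2.88 from 48 reads with a 3A fold of 2.91 (chr3:177478489-177479125). Near COBL, at 290008 bp, the fold was 2.92 from 55 reads (chr7:51606683-51607090), with no 3A peak.

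Among the 15, 2 sites stood apart in place or depth. A peak on chromosome 19 was 1471066 bp from the nearest protein-coding gene end, UQCRFS1, with 74 reads over 27.5, a fold of 2.63 (chr19:27734030-27734789), and no 3A peak. The mitochondrial peak (chrM:15981-16450) had a fold of 1.41 from a pileup of 6428 over a background of 4565 and a −log10 q of 141. It was the 1 peak of 64 whose recovered pileup missed the tolerance. Without these 2 the share of 7A peaks with a WT peak was 79.0% (49 of 62).

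The shared peaks were spread over most of the WT list by rank, at percentiles of 9.77 to 98.9 by fold. Their WT folds ran from 3.48 to 16.3, within the 1.63 to 30.5 of the whole list. WT peaks with a 7A peak had a median WT fold of 5.60 (quartiles 4.72 to 8.27), against 5.14 (4.13 to 6.69) for the 4700 without. None of the 50 highest WT folds had a 7A peak, 2 of the highest 100 did and 9 of the highest 500. The share over all WT peaks was 1.03%, at which few or none fall in 50 or 100 peaks. In 10 equal groups by WT fold, between 1 and 9 peaks per group had one, with the most, 9 each, in the 2 groups of highest fold (1.89%) and 8 in the fifth (1.68%). By −log10 q the shared peaks stood higher in the WT list, at a median percentile of 78.0 against 59.2 by fold, and their median WT −log10 q was 44.7 against 24.3 for the rest. Their median WT background was 17.3 against 13.0, and the part of the background in this order was not tested.

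**Figure D5:**
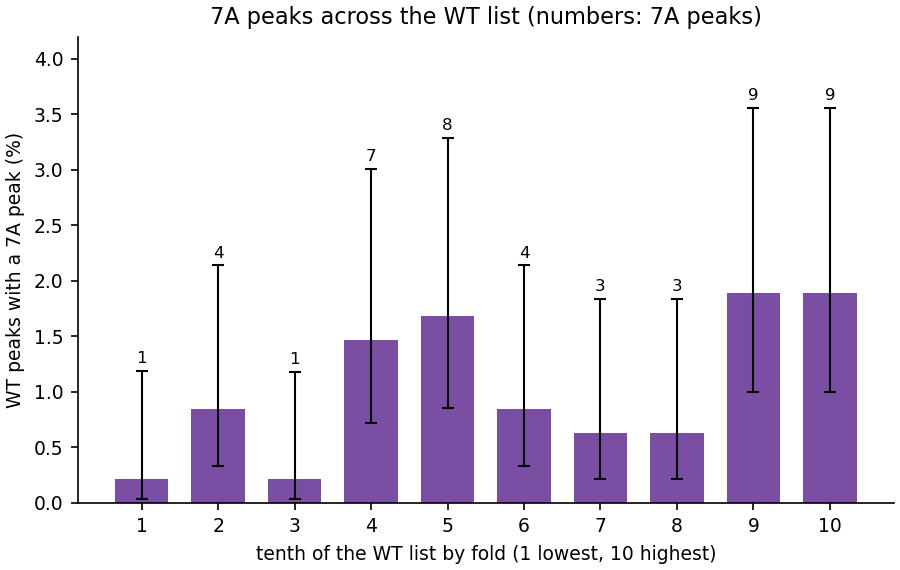
Share of WT peaks with a 7A peak (%) in 10 equal groups of the WT list by fold, from lowest to highest, with Wilson 95% intervals and the number of 7A peaks above each bar. The counts run from 1 to 9, and the interval of the lowest group (0.0373 to 1.19%) overlaps that of the highest (1.00 to 3.56%).

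The 10 WT sites with the highest folds and no 7A peak were also the 10 highest folds of the whole WT list. Their backgrounds were below the WT median of 13.0, but a low background raises a fold, so a choice by fold favours such sites. These sites were inside PPRC1 (fold 30.5 from 276 reads over 8.09), near FOXK1 (29.6), at NME1 (28.9) and near TCF3 (28.4, over 5.75, the lowest background value in the WT list). NCL (27), MYO1G (26), YDJC (24.5), ING5 (24.0), SLC33A2 (23.5) and NME2 (22.8) followed. Their pileups were 191 to 316 reads over backgrounds of 5.75 to 12.9. The shared sites, which were not chosen by fold, had a median background of 17.3 in WT.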

How the data were processed

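Tools named, per the submitters' processing notes, were MACS2, Picard, SAMtools, Bowtie2 and cutadapt (no versions), with hg38, hg19 and mm10 as builds. The pooling of the 2 IP libraries, the control and any scaling by mouse reads were not given in the sources used here. Per the labels, chromatin was sheared to 200 to 500 bp. For each induced protein a single list was deposited. Fold enrichment, the ratio of pileup in the IP to its local background, was computed by the authors with the peak caller before deposit. The −log10 p and −log10 q values were computed by the authors with the same peak calling. The score, which was not used, was deposited by the authors as the whole part of 10 times −log10 q. Folds describe peaks within a list, and values of both lists are given side by side without scaling. Total reads per library are unknown here.

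The build was checked on the gene table (RefSeq, GRCh38.p14): 60.2% of WT summits lay within 1 kb of a gene end, and 4.59 to 5.96% after shifts of 100000 or 500000 bp. Pileup k and background b were recovered from fold = (k + 1)/(b + 1) and a Poisson tail, within 0.02 of the step between pileups for 63 of 64 7A and 4749 of 4749 WT peaks, and the recovery was tested on simulated data. Genes at shared ends count separately. All 335 listed symbols matched by symbol or synonym. One 7A site at a gene end is not reported here by name. The members, lists and rules were chosen with earlier results of these data known. The naming rule covered the 7A sites, the 10 highest WT folds without 7A, list members with 7A and up to 4 with the highest WT fold, and 8 set genes. No test was run. Alternatives covered the overlap rule, −log10 q limits, gene-end windows and merging. Python 3.11.15, numpy 2.4.6, pandas 2.3.3, scipy 1.17.1 and matplotlib 3.10.9 were used.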

Additional observations from a re-analysis of the deposited data

How the results depend on the processing

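The number of 7A peaks was 64 as deposited and 39 at a −log10 q of at least 10. The share of 7A peaks with a WT peak, 76.6% by an overlap of 1 bp, was 56.2% when at least 50% of both peaks had to overlap and 59.4% when summits had to lie within 100 bp. It stayed between 76.2 and 84.6% with limits on −log10 q, a gap of up to 1 kb, merging of 7A peaks, WT peaks limited to the lowest 7A −log10 p, and without 2 unusual peaks, the last 2 alternatives being chosen after the data were seen, as was the use of listed starts of protein-coding genes as gene ends. The share of 7A summits at gene ends was 28.1 to 42.2% under its 6 alternatives, and the median WT fold of shared peaks 5.02 to 6.14 under its 5. With the stricter overlap that median, 5.02, was below that of WT peaks without 7A, 5.15. No paired analysis was possible because each protein has 1 peak list, and for the same reason no library could be left out. Library depths are unknown here, and whether depth limited the number of 7A peaks was not tested.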

Other observations

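The 7A peaks were spread over 17 nuclear chromosomes. Chromosome 1 held 8 of 64 (12.5%, against 9.73% of WT peaks) and chromosome 5 held 6 (9.38% against 4.84%). Chromosome 22 held 5 (7.81% against 3.85%). Chromosomes 4, 9, 13, 18, 21 and X held 0, against 3.10, 4.21, 1.75, 1.75, 1.14 and 1.54% of WT peaks. At such shares a list of 64 holds few peaks on any 1 of them.

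Of the 64 summits 11 lay inside a long non-coding RNA gene, and 5 of these were outside protein-coding genes and their ends. They were in LOC105371082, LINC01270, LINC01638, LINC00578 and LOC124902020, and 4 of the 5 had a WT peak, the site in LINC00578 being the exception. The same count was not made for WT summits, so whether 11 is many or few is not known here.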
